A study of Homo sapiens with 14 samples.

Results

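Histone and DNA modifying enzymes write and erase the chemical marks of chromatin. Lysine acetyltransferases (KAT) add acetyl groups to histone tails, marks known from active genes, and the zinc-dependent deacetylases (HDAC) and the NAD-dependent sirtuins (SIRT) remove them. Methyltransferases of the KMT, SETD, EZH and NSD families and the arginine methyltransferases (PRMT) add methyl groups to histones and other proteins, and the lysine demethylases (KDM) take methyl groups off lysines. DNA methyltransferases (DNMT) methylate cytosine, and the TET dioxygenases oxidise methylcytosine, a step towards its removal. In prostate cancer cells several of these enzymes, among them EZH2 and KDM1A, are known as partners of the androgen receptor or of repressive complexes.

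The genes described here were taken by symbol, as those whose name falls into 1 of these 11 families. Only probe sets annotated to 1 gene symbol were used, so the families are not complete. KMT2A and TET3, for example, are not among the 76 genes. Of 79 symbols found, 3 non-coding transcripts were left out, and the 76 genes that remained stand among 14884 genes measured. They comprised 7 KAT, 11 HDAC, 7 SIRT, 19 KDM, 6 KMT, 7 SETD, 2 EZH, 3 NSD, 4 DNMT, 2 TET and 8 PRMT genes. Each gene was read by 1 probe set, the one with the highest mean where there were 2, as for HDAC2, HDAC4, NSD3 and TET1.

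Expression was measured in LNCaP cells, a widely used prostate cancer line that depends on androgen signalling, on 14 Affymetrix Human Gene 2.0 ST arrays in 7 groups of 2. Cells were given 20 nM of a pooled siRNA against CTCF for 24, 72 or 144 h, 20 nM of a pooled non-targeting control siRNA for the same times, or no transfection. Cells of the 144 h groups were split after 72 h and transfected a second time, and cells without transfection have no labelled time beyond a description code that starts with 72, like the codes of the 72 h groups. CTCF, a DNA-binding zinc-finger protein found at the borders of chromatin domains, was depleted to ask whether expression and chromatin marks depend on it. Both pools share the transfection itself, which only untransfected cells lack. The 4 strands of the CTCF pool are shown because they define the treatment, and the second has 18 bases where the others have 19:
CTCF siRNA 1: gaugaagacugaaguaaug
CTCF siRNA 2: ggagaaagaagaagagua
CTCF siRNA 3: gaagaugccugccacuuac
CTCF siRNA 4: gaacagcccauaaacauag

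The arrays of the CTCF siRNA groups all had less of the targeted transcript than the remaining arrays. CTCF had RMA values (log2) of 6.73 and 7.25 in CTCF siRNA cells at 24 h, against 9.001 and 9.11 in control siRNA cells, of 7.46 and 7.09 against 8.98 and 9.02 at 72 h, and of 6.84 and 6.94 against 9.19 and 9.07 at 144 h. It was 4.19-fold, 3.30-fold and 4.72-fold lower at these times. Replicate arrays correlated at r = 0.992 to 0.994 over the tested probe sets. All 6 measured genes of LNCaP identity lay above the median signal of the tested probe sets, at percentiles 62.1 to 99.6, and 6 of 7 markers of fibroblasts, immune cells, basal cells and endothelium lay below it, with VIM at percentile 70.4 as the exception. Of the LNCaP genes, FOLH1, which encodes prostate-specific membrane antigen, fell at 144 h (−0.61 ± 0.11, SE, n = 2, limma adjusted p = 0.0138) and the other 5 did not pass the threshold between CTCF and control siRNA, as no other cell type marker did. Among these 5, HOXB13, a homeobox transcription factor of the prostate, stood at −0.64 ± 0.16 at 144 h (adjusted p = 0.0610).

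The enzymes varied little between arrays. The mean signals of the 76 genes ran from 2.19 to 9.58 on the log2 scale. The brightest probe sets were those of the demethylases KDM6A (9.58), KDM1A (8.66) and KDM5B (8.58), the deacetylase HDAC1 (9.09) and the methyltransferase KMT2C (9.04), and the dimmest were those of KDM4E (2.19), HDAC9 (2.60), PRMT8 (2.87), DNMT3L (3.41) and SIRT4 (3.45). Probe sets differ in how brightly they bind, so this is an order of array signal and not of transcript number, and how far the dim values lie above background is not known. Between the lowest and the highest of the 14 arrays, the median gene of the 76 spanned 0.53 log2 units, against 0.63 for all tested probe sets. A span of 1 or more was reached by KAT2B (1.43), EZH2 (1.24) and DNMT1 (1.15), which is 3.95% of the 76 genes, against 13.2% of the tested probe sets. The mean signal of 67 of the 76 genes was at or above the median of the tested probe sets, so sets of unlike brightness are compared. Whether the smaller spans follow signal level was not tested.

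**Figure D1:**
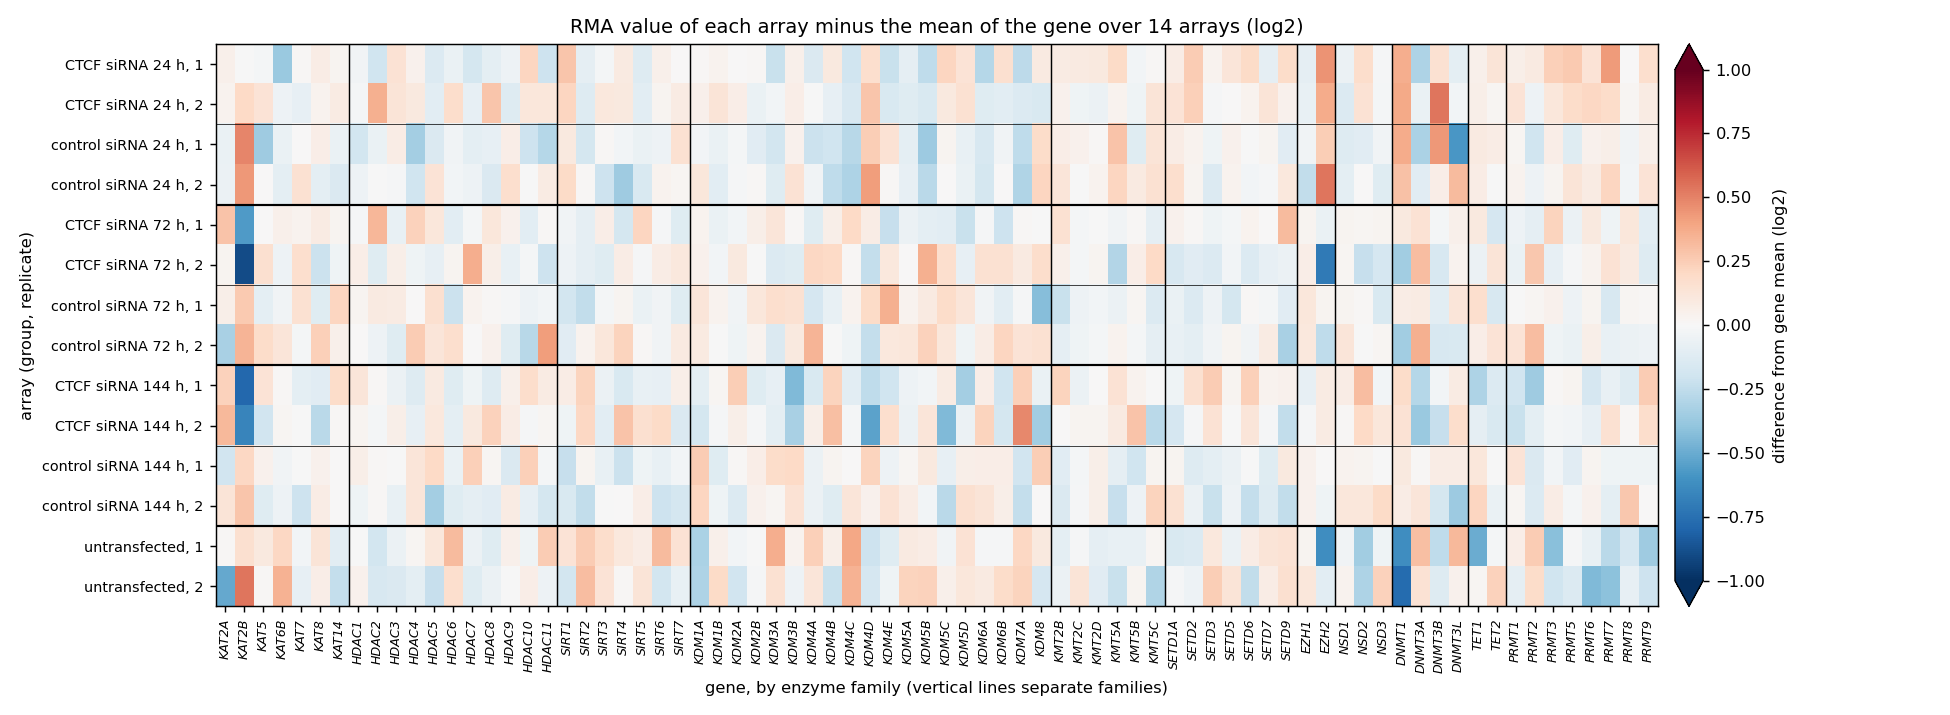
Heat map of the 76 enzyme genes (columns, by family) in the 14 arrays (rows, 2 per group), coloured by the RMA value of the array minus the mean of the gene over all arrays, in log2 units. KAT2B is blue in the CTCF siRNA arrays of 72 and 144 h, and DNMT1 is blue in both untransfected arrays.

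Few enzymes responded to CTCF siRNA. At a limma adjusted p under 0.05, 0 of 76 genes passed at 24 h, where 0.0124% of all 16098 probe sets did, 1 passed at 72 h (1.32%, against 0.186% of all probe sets), and 3 passed at 144 h (3.95%, against 3.76% of all probe sets). Relative to control siRNA cells, KAT2B fell at 72 and 144 h, the demethylase KDM3B fell at 144 h, and the demethylase KDM7A rose at 144 h. The share at 144 h was close to the background. At an unadjusted p under 0.05 there were 2, 3 and 15 of the 76 genes at 24, 72 and 144 h (2.63%, 3.95% and 19.7%), against 6.03%, 8.03% and 16.4% of all probe sets. The 2 arrays of a group are biological duplicates by the study's account, and p-values rest on how far such duplicates differ.

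KAT2B, also known as PCAF, acetylates histone H3 and acts as a coactivator together with the acetyltransferases CBP and p300. Its values were 5.65 and 5.85 in CTCF siRNA cells at 24 h, against 6.14 and 6.09 in control siRNA cells. At 72 h they were 5.09 and 4.76 with CTCF siRNA, against 5.91 and 5.996 with control siRNA, and at 144 h 4.87 and 4.99 against 5.86 and 5.93. Untransfected cells had 5.81 and 6.19. Every CTCF siRNA array was below every control siRNA array of its time, and at 72 and 144 h also below both untransfected arrays. The log2 differences were −0.37 ± 0.14 at 24 h (SE, n = 2, limma adjusted p = 0.748), −1.03 ± 0.14 at 72 h (adjusted p = 0.0188, 2.05-fold lower) and −0.96 ± 0.14 at 144 h (adjusted p = 0.00394, 1.95-fold lower), with 95% intervals of −1.34 to −0.73 at 72 h and of −1.27 to −0.66 at 144 h. Among all tested probe sets the decrease of KAT2B ranked 13th at 72 h and 75th at 144 h. The effect did not differ past the threshold between times, at −0.59 ± 0.19 for 144 h minus 24 h (adjusted p = 0.279) and 0.07 ± 0.19 for 144 h minus 72 h (adjusted p = 0.967). The arrays read the RNA of whole cultures, so fewer cells with KAT2B and less KAT2B RNA per cell cannot be told apart.

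The call for KAT2B at 72 h was lost without control siRNA replicate 1 of 72 h (−1.07, limma adjusted p = 0.106), control siRNA replicate 2 (−0.99, adjusted p = 0.214) or CTCF siRNA replicate 2 (−0.82, adjusted p = 0.225), and when all 53617 rows of the table were tested (adjusted p = 0.128). At 144 h it held whichever of the 12 arrays was left out, with differences of −1.03 to −0.90 and a highest adjusted p of 0.0499. Over all 3 times, KAT2B was the only 1 of the 76 genes whose 6 CTCF siRNA arrays all lay on the same side of the 6 control siRNA arrays (1.32%, against 1% of all probe sets), with 5.854 as its highest CTCF siRNA value and 5.856 as its lowest control siRNA value.

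KAT2A (GCN5), the paralogue of KAT2B and its alternative in the same coactivator complexes, did not pass the threshold. It measured 7.84 and 7.83 in CTCF siRNA cells, against 7.73 and 7.73 in control siRNA cells, at 24 h, 8.08 and 7.82 against 7.85 and 7.47 at 72 h, and 8.02 and 8.12 against 7.60 and 7.92 at 144 h. The log2 differences were 0.11, 0.29 and 0.31, each ± 0.16 (SE, n = 2), with limma adjusted p = 0.994, 0.711 and 0.374. The 95% interval at 144 h, −0.04 to 0.66, lay apart from that of KAT2B. The other 5 acetyltransferases differed by −0.25 to 0.10 at 144 h and none passed.

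KDM3B removes methyl groups from lysine 9 of histone H3, a mark of silent chromatin. At 144 h it measured 7.45 and 7.56 in CTCF siRNA cells, against 8.09 and 8.03 in control siRNA cells, and untransfected cells had 7.92 and 7.83. Both CTCF siRNA arrays of 144 h lay below all other 12 arrays, a separation whose share over all probe sets was not counted. The log2 difference at 144 h was −0.55 ± 0.11 (SE, n = 2, limma adjusted p = 0.0219, 1.47-fold lower), after −0.03 ± 0.11 at 24 h and −0.18 ± 0.11 at 72 h (adjusted p = 0.997 and 0.756).

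KDM7A takes methyl groups off lysines 9 and 27 of histone H3. Its values at 144 h were 6.57 and 6.81 in CTCF siRNA cells, against 6.14 and 6.09 in control siRNA cells. The untransfected arrays, at 6.54 and 6.55, lay just under the CTCF siRNA arrays of 144 h and above every control siRNA array. At 72 h the values overlapped, with 6.34 and 6.42 in CTCF siRNA cells and 6.32 and 6.47 in control siRNA cells, and at 24 h they were 6.06 and 6.19 with CTCF siRNA and 6.07 and 6.03 with control siRNA. The log2 difference was 0.58 ± 0.11 at 144 h (SE, n = 2, limma adjusted p = 0.0212, 1.49-fold higher), 0.08 ± 0.11 at 24 h and −0.02 ± 0.11 at 72 h (adjusted p = 0.993 and 0.987). Control siRNA cells of 144 h serve both in this comparison and in that with untransfected cells. In the latter they stood at −0.43 ± 0.11 without passing (limma adjusted p = 0.0579). CTCF siRNA cells of 144 h did not pass against untransfected cells for KDM7A.

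The calls for both demethylases needed all 4 arrays of 144 h. Without control siRNA replicate 1 or 2, or CTCF siRNA replicate 1 or 2, the difference of KDM3B was −0.52, −0.59, −0.49 and −0.62, with limma adjusted p = 0.160, 0.102, 0.176 and 0.0783. That of KDM7A was 0.65, 0.50, 0.67 and 0.48, with adjusted p = 0.0753, 0.163, 0.0672 and 0.173. With all rows of the table tested, adjusted p was 0.0712 for KDM3B and 0.0704 for KDM7A.

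**Figure D2:**
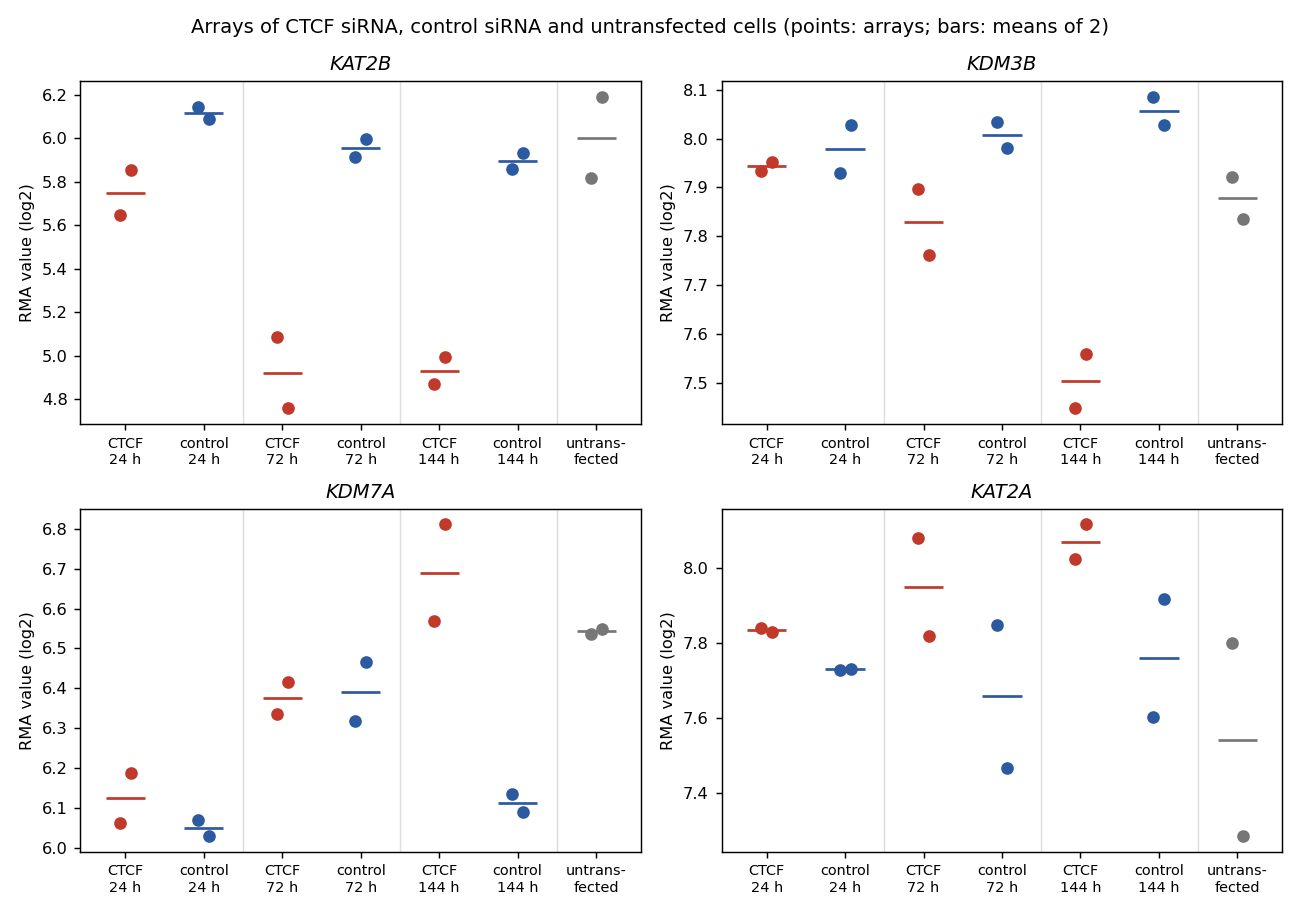
RMA values (log2) of the 3 enzyme genes that changed after CTCF siRNA and of KAT2A, per array, for CTCF siRNA (red), control siRNA (blue) and untransfected cells (grey), with bars at the means of 2 arrays and a separate axis range in each panel. KAT2B is lower in every CTCF siRNA array of 72 and 144 h than in any other siRNA array, and KDM7A is higher at 144 h, at 6.57 and 6.81 against 6.14 and 6.09.

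The promoters of the 3 genes that changed are shown because CTCF binds DNA by sequence, although no binding was measured on these arrays. The study mapped CTCF binding by ChIP-seq after 144 h of siRNA, and those data were not used here. They are the 300 bases around the RefSeq start, most of them upstream, 5′ to 3′ on the strand of the gene (build GRCh38.p14). Capitals mark AGGGGGC, a short part of the CTCF motif, which was chosen after the sequences had been seen:
KAT2B, chr3:20040196-20040495, strand +: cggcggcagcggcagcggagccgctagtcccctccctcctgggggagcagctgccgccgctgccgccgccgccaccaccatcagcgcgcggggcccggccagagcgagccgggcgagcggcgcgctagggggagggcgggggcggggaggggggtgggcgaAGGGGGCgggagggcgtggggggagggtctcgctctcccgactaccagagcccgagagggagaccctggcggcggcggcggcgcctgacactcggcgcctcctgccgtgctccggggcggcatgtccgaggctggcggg
KDM3B, chr5:138352435-138352734, strand +: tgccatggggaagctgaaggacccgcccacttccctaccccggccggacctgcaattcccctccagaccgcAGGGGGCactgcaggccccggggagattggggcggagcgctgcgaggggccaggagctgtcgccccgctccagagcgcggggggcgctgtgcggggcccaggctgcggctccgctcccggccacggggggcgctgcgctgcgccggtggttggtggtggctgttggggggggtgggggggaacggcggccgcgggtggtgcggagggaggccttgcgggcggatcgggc
KDM7A, chr7:140176934-140177233, strand -: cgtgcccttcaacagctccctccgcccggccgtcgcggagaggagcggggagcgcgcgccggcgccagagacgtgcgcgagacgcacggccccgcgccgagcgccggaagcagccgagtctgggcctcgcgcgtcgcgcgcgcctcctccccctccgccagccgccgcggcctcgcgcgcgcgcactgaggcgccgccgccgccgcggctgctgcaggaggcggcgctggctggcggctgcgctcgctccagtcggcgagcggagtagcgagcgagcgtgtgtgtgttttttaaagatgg

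A single match to AGGGGGC starts at base 162 of the KAT2B window and at base 72 of the KDM3B window, and the KDM7A window holds no match. As the letters were chosen after the sequences had been seen, this pattern says nothing about CTCF binding. Promoters of this length were matched by symbol for 70 of the 76 genes, all but DNMT3L, HDAC5, KAT8, KDM4E, NSD3 and SIRT7. Searched on both strands, AGGGGGC was found in 24 of these 70 promoters and in 14.4% of 35116 promoters of all genes. Of these 24 genes, only KAT2B and KDM3B passed between CTCF and control siRNA. The 70 promoters were rich in CpG, with a median of 28 CpG dinucleotides and 65.8% GC, against 14 and 58.7% over all promoters, so that matches to GC-rich letters are counted in unlike sequence.

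Genes next to those 3 were also read. Of the 2 named neighbours on each side, none of KAT2B (MIR4791, PP2D1, MIR3135A and SGO1) or of KDM3B (GFRA3, CDC25C, REEP2 and EGR1) passed the threshold at 144 h. Next to KDM7A, HIPK2, a nuclear protein kinase gene, rose by 0.48 ± 0.11 (SE, n = 2, limma adjusted p = 0.0463), and TBXAS1 and the divergent transcript KDM7A-DT stood at 0.70 ± 0.18 and 0.59 ± 0.16 without passing (adjusted p = 0.0717 and 0.0797). MKRN1, beyond KDM7A-DT on the same side, was at −0.03.

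The 5 probe sets whose values followed KAT2B most closely over the 14 arrays were those of CEP95, FADS1, SAAL1, EOGT and IGF2BP3, with Pearson r of 0.942 to 0.963. Among the enzymes, KDM3B was most like KAT2B (r = 0.74) and KDM4B most opposed to it (r = −0.87), over the same 14 arrays, which share their siRNA groups. At 144 h the log2 difference of KDM4B, a demethylase of lysine 9 of histone H3, was 0.31 ± 0.12 (SE, n = 2, limma adjusted p = 0.220).

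By family, the differences between CTCF and control siRNA stayed small. Of the 76 genes, 53, 38 and 41 had a positive difference at 24, 72 and 144 h (69.7%, 50% and 53.9%), against 52.3%, 46.6% and 50.5% of all probe sets. The median size of a difference was 0.09, 0.07 and 0.12 log2 units at these times, against 0.10, 0.11 and 0.14 over all probe sets. In 69, 68 and 62 of the 76 genes the whole 95% interval lay within a 1.5-fold change, a larger share than the 12940, 12580 and 11379 of the 16098 probe sets. Standard errors were also smaller in the 76 genes (median 0.12, against 0.14 log2 units over all probe sets), which narrows their intervals. CTCF siRNA arrays and control siRNA arrays did not overlap for 43.4%, 28.9% and 60.5% of the 76 genes, against 35.7%, 35.1% and 47% of all probe sets.

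No HDAC gene and no sirtuin passed the threshold at any time. At 144 h the 11 deacetylases differed by −0.23 to 0.17, HDAC4 having the smallest p (−0.23 ± 0.13, SE, n = 2, limma adjusted p = 0.449), and 6 of 7 sirtuins had positive differences, led by the cytoplasmic sirtuin SIRT2 (0.32 ± 0.14, adjusted p = 0.273). The 19 demethylases differed by −0.55 to 0.58 at 144 h, with a median of −0.10 and 7 positive differences.

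None of the lysine methyltransferases passed between CTCF and control siRNA. SETD3, which methylates actin, was nearest at 144 h, with 8.25 and 8.14 in CTCF siRNA cells against 7.90 and 7.77 in control siRNA cells (0.36 ± 0.10, SE, n = 2, limma adjusted p = 0.0938). KMT5B, which methylates lysine 20 of histone H4, was at 0.29 ± 0.11 (adjusted p = 0.244). EZH1 and EZH2, the catalytic subunits of Polycomb repressive complex 2, were at −0.09 ± 0.11 and 0.10 ± 0.18, and NSD2, which methylates lysine 36 of histone H3, was at 0.18 ± 0.12 (adjusted p = 0.742, 0.851 and 0.505). The SETD3 arrays of CTCF siRNA lay above those of control siRNA without the difference passing.

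The enzymes of DNA methylation did not pass at any of the 3 times. DNMT3A, a DNA methyltransferase that sets up new methylation, had 5.40 and 5.31 in CTCF siRNA cells, against 5.70 and 5.81 in control siRNA cells, at 144 h (−0.40 ± 0.12, SE, n = 2, limma adjusted p = 0.106). TET1 was at −0.36 ± 0.12 (adjusted p = 0.148), and PRMT1, the main source of asymmetric arginine methylation, at −0.29 ± 0.11 (adjusted p = 0.211). DNMT1, which copies methylation after replication, was at 0.08 ± 0.14 (adjusted p = 0.851). Beside SETD3 and DNMT3A, the genes just outside the threshold at 144 h were the demethylases KDM1A (−0.37 ± 0.11, adjusted p = 0.0945) and KDM4D (−0.53 ± 0.16, adjusted p = 0.107). With the replicate numbers of the descriptions as the block, KDM4D passed as well, which gave 4 genes called.

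**Figure D3:**
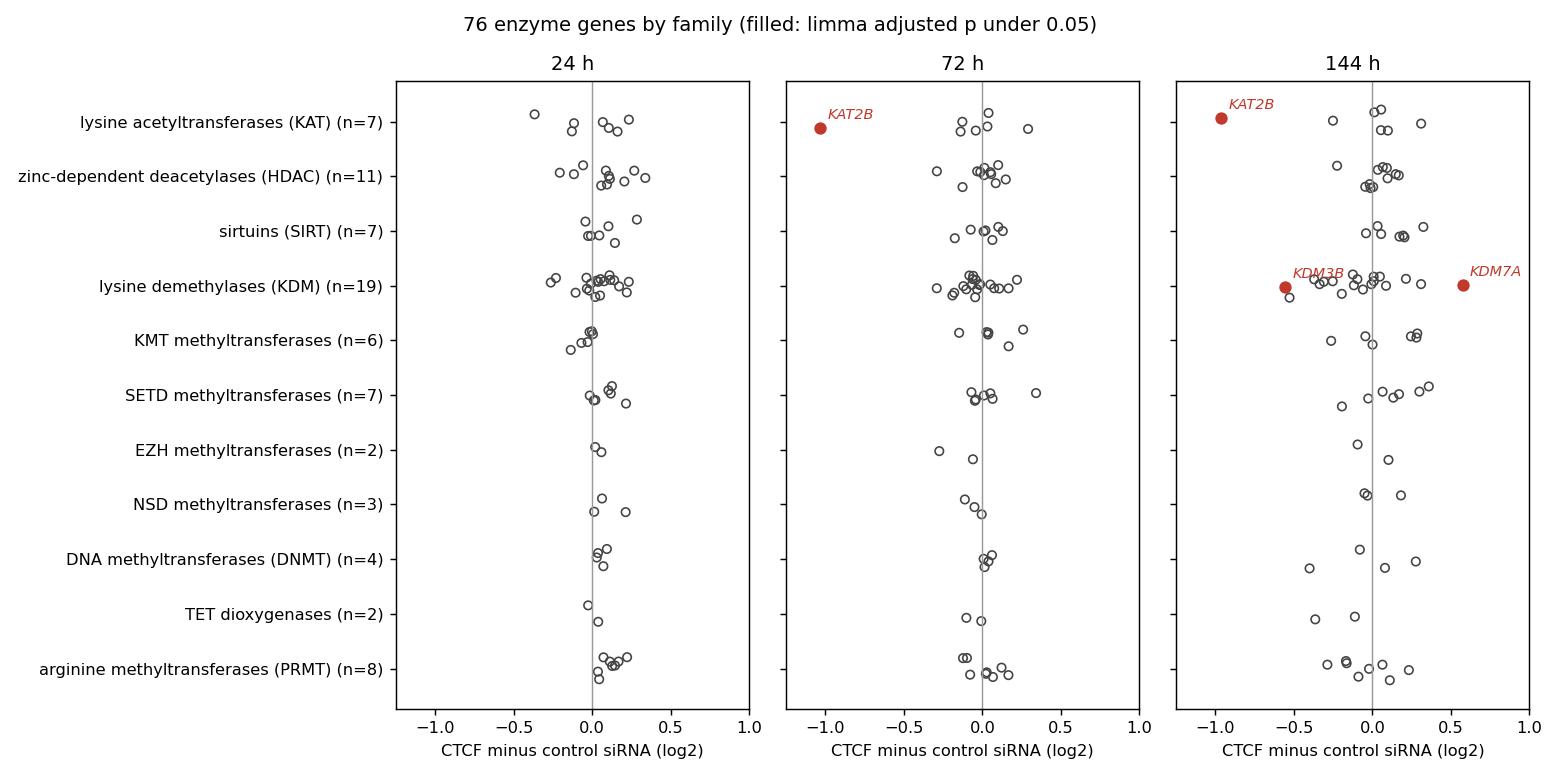
Log2 difference between CTCF siRNA and control siRNA for each of the 76 enzyme genes (circles), by family (rows; vertical spread within a row has no meaning) and time (panels), with filled red circles for a limma adjusted p under 0.05. KAT2B stands alone at −1.03 at 72 h, and at 144 h KAT2B (−0.96), KDM3B (−0.55) and KDM7A (0.58) are filled.

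Tested directly, the CTCF effect of 144 h did not differ from that of 24 h or of 72 h for any of the 76 genes by limma (0 of 76 each, against 0.795% and 0.0186% of all probe sets, with 9 and 7 of the 76 genes, and 10.8% and 8.39% of all probe sets, at an unadjusted p under 0.05). KDM3B, at −0.52 ± 0.15 (SE, n = 2) for 144 h minus 24 h, and KDM7A, at 0.50 ± 0.16, had limma adjusted p = 0.234 and 0.274. A larger effect at 144 h than at 24 h was therefore not shown by this test for either demethylase.

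Partners of these enzymes were compared in the same way, in lists written from general knowledge. At 24 and 72 h, 0 of their genes passed between CTCF and control siRNA, against 0.0124% and 0.186% of all probe sets. At 144 h, 1 of 21 Polycomb partners rose, PCGF5, a subunit of variant Polycomb repressive complex 1 (0.93 ± 0.12, SE, n = 2, limma adjusted p = 0.00186), and 1 of 25 acetyltransferases and partners outside the families rose, JADE1, a scaffold of the KAT7 complex (0.64 ± 0.14, adjusted p = 0.040). None passed among 13 subunits of COMPASS (the complexes that carry KMT2 methyltransferases), 18 partners of HDAC and KDM1A complexes, 14 other methyltransferases, 7 other demethylases, 11 partners and readers of DNA methylation and 17 readers of acetylated or methylated lysine. The share of all probe sets called at 144 h was 3.76%.

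Control siRNA cells were also compared with untransfected cells. At 24 h, 3 of 76 genes passed (3.95%, against 7.57% of all probe sets): DNMT1 rose, and the demethylases KDM4C and KDM7A fell. At 72 h 0 passed by limma (against 0.478% of all probe sets, with 11 of the 76 genes, and 11.9% of all probe sets, at an unadjusted p under 0.05), and at 144 h 2 passed (2.63%, against 4.14% of all probe sets), DNMT1 and KDM1A, both higher. At 24 h, 6 genes passed without the replicate number in the fit. All of these comparisons use the same 2 untransfected arrays, whose time in culture is not stated outright. At 24 and 144 h, time in culture and transfection cannot be told apart, and whether they can at 72 h is not known.

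DNMT1 measured 8.87 and 8.79 in control siRNA cells at 24 h, 8.57 and 8.15 at 72 h and 8.60 and 8.57 at 144 h, against 7.88 and 7.73 in untransfected cells. All 12 siRNA arrays lay above both untransfected arrays, those with CTCF siRNA at 8.86 and 8.88 (24 h), 8.60 and 8.15 (72 h) and 8.68 and 8.64 (144 h). How many of all probe sets separate in this way was not counted. The log2 difference of control siRNA from untransfected cells was 1.03 ± 0.14 at 24 h (SE, n = 2, limma adjusted p = 0.00172, 2.04-fold higher), 0.56 ± 0.14 at 72 h (adjusted p = 0.125) and 0.78 ± 0.14 at 144 h (adjusted p = 0.0124). The call at 24 h held whichever array was left out (0.98 to 1.08, highest adjusted p = 0.0302). The call at 144 h was lost without untransfected replicate 1 (0.77, adjusted p = 0.0815) or 2 (0.79, adjusted p = 0.0615), control siRNA replicate 1 of 144 h (0.86, adjusted p = 0.0553) or 2 (0.70, adjusted p = 0.129), and with all rows of the table tested (adjusted p = 0.0525).

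Genes of S phase were also higher in control siRNA cells than in untransfected cells. The mean of 22 S phase genes was 7.42 and 7.44 in control siRNA cells at 24 h, 7.08 and 6.68 at 72 h and 7.13 and 7.11 at 144 h, against 5.88 and 6.08 in untransfected cells. Of these, 21, 9 and 19 rose at 24, 72 and 144 h, and of 23 genes of G2 and M phase 23, 4 and 22 did. Of all probe sets, 7.57%, 0.478% and 4.14% passed in either direction at these times. Neither list had a member past the threshold between CTCF and control siRNA. The array of control siRNA at 72 h that was lower for DNMT1, replicate 2, was also lower for the S phase mean, and so was CTCF siRNA replicate 2 of 72 h (6.63, against 7.11 in replicate 1). What part the cell cycle had in the DNMT1 values was not tested. The DNMT1 promoter is shown for the match it holds to TTTNNCGC, the E2F motif of replication genes, on its other strand (in capitals), in the same window and build as above:
DNMT1, chr19:10194904-10195203, strand -: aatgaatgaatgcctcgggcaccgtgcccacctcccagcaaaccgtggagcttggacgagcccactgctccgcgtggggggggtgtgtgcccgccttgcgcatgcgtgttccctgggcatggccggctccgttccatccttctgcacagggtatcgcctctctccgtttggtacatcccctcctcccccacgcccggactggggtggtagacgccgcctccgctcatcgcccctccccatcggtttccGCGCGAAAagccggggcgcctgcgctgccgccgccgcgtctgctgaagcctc

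That match starts at base 249. The motif, searched on both strands, was found in 10 of 70 promoters of the enzymes (DNMT1, EZH1, EZH2, KDM1B, KMT2D, KMT5A, NSD2, PRMT7, SIRT4 and SIRT6) and in 6.89% of all promoters. The 10 include KMT2D, SIRT4 and SIRT6, which passed in no comparison. The enzyme promoters are richer in CpG, as given above, and the motif holds a CpG, so the shares are counted in unlike sequence. Whether E2F binds DNMT1 or bears on its values was not tested.

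UHRF1, which brings DNMT1 to newly copied DNA, rose with it in control siRNA cells, by 0.97 ± 0.14 at 24 h (SE, n = 2, limma adjusted p = 0.00188) and 0.67 ± 0.14 at 144 h (adjusted p = 0.0202). It was the 1 of 11 partners and readers of DNA methylation that passed (9.09%, against 7.57% and 4.14% of all probe sets at these times). EZH2, which is known to be expressed in cycling cells, had 7.87 and 8.16 in control siRNA cells at 24 h, against 7.005 and 7.52 in untransfected cells. Its difference of 0.75 ± 0.22 did not pass (adjusted p = 0.0581).

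KDM4C, a demethylase of lysines 9 and 36 of histone H3, had 6.15 and 6.12 in control siRNA cells at 24 h, against 6.82 and 6.78 in untransfected cells. The difference was −0.66 ± 0.11 (SE, n = 2, limma adjusted p = 0.00506, 1.58-fold lower) and was lost without control siRNA replicate 2 of 24 h (−0.65, adjusted p = 0.0549). All 12 siRNA arrays of KDM4C lay below both untransfected arrays, a separation whose share over all probe sets was not counted. KDM7A fell by 0.49 ± 0.11 at 24 h (adjusted p = 0.0224), and this call was lost without control siRNA replicate 1 (−0.56, adjusted p = 0.0684) or 2 (−0.43, adjusted p = 0.175) of 24 h or untransfected replicate 1 (−0.46, adjusted p = 0.112) or 2 (−0.53, adjusted p = 0.0755), and with all rows tested (adjusted p = 0.0704).

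KDM1A (LSD1), which demethylates lysine 4 of histone H3 and works with the HDAC1 complexes, had 8.91 and 8.87 in control siRNA cells at 144 h, against 8.35 and 8.35 in untransfected cells. The difference was 0.54 ± 0.10 (SE, n = 2, limma adjusted p = 0.0162, 1.46-fold higher), after 0.35 ± 0.10 at 24 h and 0.42 ± 0.10 at 72 h (adjusted p = 0.0647 and 0.124). CTCF siRNA cells of 144 h, at 8.56 and 8.48, lay between the untransfected arrays and the control siRNA arrays of that time. The call at 144 h was lost without untransfected replicate 1 (0.55, adjusted p = 0.0880) or 2 (0.54, adjusted p = 0.0773), control siRNA replicate 1 of 144 h (0.52, adjusted p = 0.115) or 2 (0.57, adjusted p = 0.112), and with all rows tested (adjusted p = 0.0604).

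**Figure D4:**
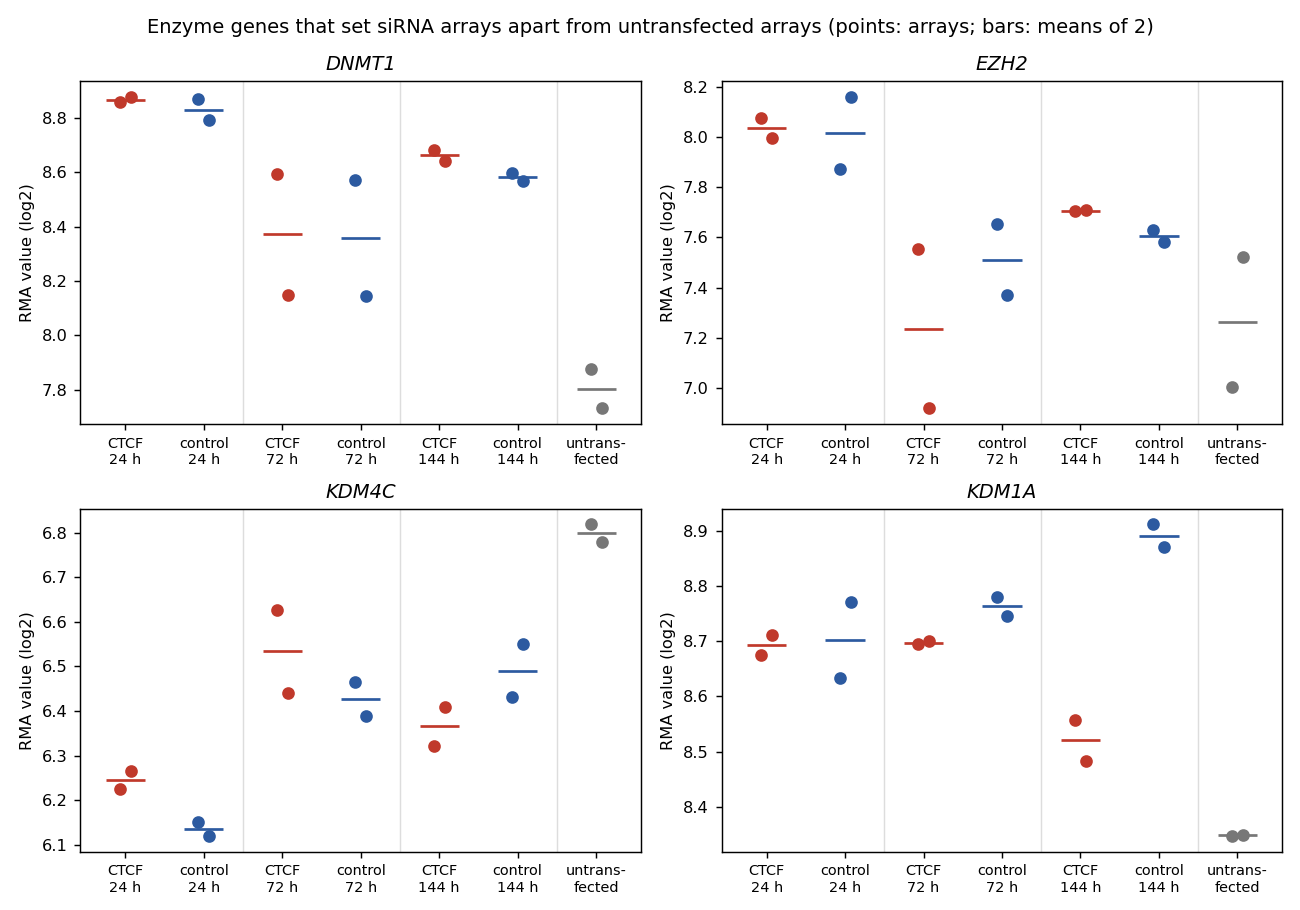
RMA values (log2) of DNMT1, EZH2, KDM4C and KDM1A per array, for CTCF siRNA (red), control siRNA (blue) and untransfected cells (grey), with bars at the means of 2 arrays and a separate axis range in each panel. Every siRNA array of DNMT1 and KDM1A lies above, and every siRNA array of KDM4C below, both untransfected arrays. The share of all probe sets with such a separation was not counted.

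Some partners of the enzymes also differed between control siRNA and untransfected cells at 24 h, where 7.57% of all probe sets passed, and 0 of 18 partners of HDAC and KDM1A complexes, 0 of 25 acetyltransferases and partners and 0 of 17 lysine readers did. WDR5, the core of COMPASS complexes (0.76 ± 0.12, SE, n = 2), HCFC1 (0.50) and PAXIP1 (0.44) rose among 13 COMPASS subunits, and SUV39H1 (0.98 ± 0.19) and SUV39H2 (0.75 ± 0.15), which methylate lysine 9 of histone H3, and SMYD4 (0.55) rose among 14 other methyltransferases. MTF2, a partner of Polycomb repressive complex 2, rose by 0.46 as 1 of 21 Polycomb partners, and JMJD1C, a relative of KDM3B, fell by 0.62 ± 0.12 as 1 of 7 other demethylases, with limma adjusted p of 0.0433 or less for all of these. At 72 h 0 genes of these lists passed, against 0.478% of all probe sets. At 144 h HCFC1 (0.51) and MTF2 (0.56) were again higher (adjusted p = 0.0444 and 0.0228), where 4.14% of all probe sets passed. VIM, of 2 fibroblast markers measured, fell by 0.63 ± 0.12 at 24 h and 0.58 ± 0.12 at 144 h (adjusted p = 0.00972 and 0.0243).

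Between CTCF siRNA cells of 144 h and untransfected cells, 7 of the 76 genes differed (9.21%, against 11.1% of all probe sets). KAT2B (−1.07 ± 0.15, SE, n = 2), DNMT3A (−0.56 ± 0.13), KDM4C (−0.43 ± 0.11) and KDM3B (−0.38 ± 0.11) fell, and DNMT1 (0.86 ± 0.14), NSD2 (0.59 ± 0.12) and the arginine methyltransferase PRMT9 (0.50 ± 0.11) rose, with limma adjusted p of 0.0485 or less. DNMT3A had 5.40 and 5.31 in CTCF siRNA cells at 144 h, against 5.99 and 5.84 in untransfected cells, and NSD2 had 7.11 and 7.002 against 6.45 and 6.49. Both pairs of arrays were apart, as CTCF and control siRNA arrays of 144 h were for 47% of all probe sets. Of the 7 genes, only KAT2B and KDM3B also passed between CTCF and control siRNA at 144 h. Control siRNA cells of 144 h differed from the same untransfected arrays in the same direction for DNMT1 (0.78), NSD2 (0.40), KDM4C (−0.31) and PRMT9 (0.27), with only DNMT1 past the threshold. The means of DNMT3A and KAT2B were lower there too, and that of KDM3B was higher. Transfection and time in culture enter both comparisons. KAT2B and DNMT1 kept their calls whichever array was left out (highest adjusted p = 0.0153 and 0.0319).

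The other 5 of these calls depended on single arrays. KDM3B lost its call whichever of the 14 arrays was left out (adjusted p = 0.0553 to 0.287, limma). KDM4C lost it without untransfected replicate 1 (−0.42, adjusted p = 0.119) or 2 (−0.45, adjusted p = 0.0989) or CTCF siRNA replicate 1 (−0.37, adjusted p = 0.195) or 2 (−0.49, adjusted p = 0.0834). DNMT3A lost it without untransfected replicate 1 (−0.40, adjusted p = 0.142) or CTCF siRNA replicate 2 (−0.44, adjusted p = 0.156), and NSD2 without untransfected replicate 1 (0.55, adjusted p = 0.0573) or CTCF siRNA replicate 1 (0.54, adjusted p = 0.0777). PRMT9 lost it without untransfected replicate 1 (0.41, adjusted p = 0.0941) or CTCF siRNA replicate 1 (0.45, adjusted p = 0.110) or 2 (0.54, adjusted p = 0.0530). These 5 genes stayed on their side of 0 throughout.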

How the data were processed

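Total RNA of LNCaP cells was labelled with biotin and read on Affymetrix Human Gene 2.0 ST arrays. The values are the authors' deposited log2 expression values, 1 column per array, made in R 3.2.5 with RMA (background correction, quantile normalisation and median polish). All 14 columns were used. Background correction could not be varied, and arrays have no read depth, so the number of arrays limits the precision. The array medians ran from 3.67 to 3.72. The platform annotation gave 1 gene symbol for 16098 of 53617 rows. The other 37519 rows, with no symbol or with more than 1, were left out of the main tests.

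CTCF and control siRNA were compared with limma 3.58.1 in R 4.3.3 (linear models with moderated variances, two-sided tests, p-values adjusted after Benjamini-Hochberg across the 16098 probe sets, threshold 0.05). The fit held 12 arrays, 6 groups and a block for the replicate number of the titles. The study's methods name a pairing of replicates but not the numbers that define it. Contrasts with untransfected cells used 14 arrays and 7 groups. Errors are standard errors (SE) and n is arrays per group. In the data, deviations of same-numbered arrays correlated at −0.09 to 0.23 over 21 pairs of groups, 2 of them above 0.1. The 24 h arrays carry other numbers in their descriptions than in their titles, and a block from these was an alternative, as were no block, all 14 arrays in the fit, all rows tested, dim probe sets left out, re-centred arrays, a trended robust eBayes, array weights, and each array left out.

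Members and gene lists were chosen with earlier results of these data known. Named were the genes past the threshold, the 5 brightest and 5 dimmest, KAT2B and KAT2A, the smallest p per family at 144 h, and up to 4 genes past the threshold per list. EZH2, KDM4B, KDM4D, the neighbouring genes and both motifs were added after their values were seen. The fit was also run on simulated data with independent normal noise and shifts added only to CTCF siRNA arrays of 144 h. This setting is simpler than the real arrays, and no call here rests on it. Sequences are from RefSeq (GRCh38.p14), and no table of probe positions was used.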

Additional observations from a re-analysis of the deposited data

How the results depend on the processing

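Over 43 single-enzyme results, 808 of 875 values under the alternatives kept their side of the threshold, 60 lost the call and 7 gained it. Only uncalled values changed sign. With all rows of the table tested, the number of enzymes called became 0 (from 1) for CTCF against control siRNA at 72 h and 1 (from 3) at 144 h, 0 (from 2) for control siRNA at 144 h against untransfected cells, and 4 (from 7) for CTCF siRNA at 144 h against untransfected cells. Without the probe sets under the median level these comparisons gave 1, 6, 5 and 12, and control siRNA at 24 and 72 h against untransfected cells gave 12 (from 3) and 2 (from 0). With the trended robust eBayes, 5 enzymes were called for CTCF against control siRNA at 144 h, and 11, 2 and 5 for control siRNA at 24, 72 and 144 h against untransfected cells. SETD3 passed for CTCF against control siRNA at 144 h under both of these settings (adjusted p = 0.0286 and 0.0231), KDM1A passed under both as well, and DNMT3A passed under the first of them (adjusted p = 0.0382). Fewer probe sets enter the adjustment when dim ones are left out, and more when all rows are tested. The cause of the other changes was not tested, and the calls of genes outside the 11 families were not refitted one by one. With 1 array left out, the counts were 0 for CTCF against control siRNA at 24 h, 0 to 1 at 72 h and 1 to 3 at 144 h, 0 for both differences between times, 1 to 5, 0 and 0 to 2 for control siRNA at 24, 72 and 144 h against untransfected cells, and 2 to 6 for CTCF siRNA at 144 h against them.

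Without the replicate block, control siRNA at 24 h against untransfected cells called 6 enzymes (from 3) and the other counts stayed at 0, 1 and 3 for CTCF against control siRNA at 24, 72 and 144 h, so the pairing changed no other count by over 1.5 times. With the block from the description numbers, 4 enzymes were called for CTCF against control siRNA at 144 h, KDM4D beside KAT2B, KDM3B and KDM7A. The study's methods name paired replicates without saying which arrays form a pair. The title numbers were taken as the pairs here, and same-numbered arrays resembled each other only weakly.

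Over all probe sets, the calls moved by more than 1.5 times as follows. With all rows tested, CTCF against control siRNA gave 0 (from 2) at 24 h and 4 (from 30) at 72 h, the difference between 144 and 24 h gave 21 (from 128) and that between 144 and 72 h 0 (from 3), and control siRNA against untransfected cells gave 1 (from 77) at 72 h and 367 (from 667) at 144 h. The trended robust eBayes gave 5, 64, 218 and 54 for the first 4 of these and 221 for control siRNA at 72 h. Leaving out dim probe sets gave 46 for CTCF against control siRNA at 72 h, 22 for the difference between 144 and 72 h, and 237 and 1010 for control siRNA at 72 and 144 h. Array weights gave 17 for control siRNA at 72 h. The block from the description numbers gave 1 for CTCF against control siRNA at 24 h and 0 for the difference between 144 and 72 h, which was 14 without a block and 13 with all 14 arrays in the fit.

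With 1 array left out, the calls over all probe sets were 0 to 2 for CTCF against control siRNA at 24 h (from 2) and 0 to 30 at 72 h (from 30), with 10 without control siRNA replicate 1 of 72 h and 0 without control or CTCF siRNA replicate 2. At 144 h they were 210 to 245 without any 1 of the 4 arrays of that time and 472 to 557 without another array (from 606). The difference between 144 and 24 h gave 23 to 63 without an array of these times and 87 to 106 without one of 72 h (from 128), and that between 144 and 72 h gave 0 to 2 (from 3). Without 1 of the 4 arrays compared, control siRNA against untransfected cells gave 306 to 587 at 24 h (from 1218), 0 to 56 at 72 h (from 77) and 72 to 311 at 144 h (from 667), and CTCF siRNA at 144 h against them gave 792 to 1096 (from 1785). Without an array of another group these became 1065 to 1142, 23 to 60, 536 to 621 and 1640 to 1763.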

Other observations

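The second probe sets of 4 enzymes, left out above for their lower mean, did not pass the threshold between CTCF and control siRNA by limma at any time. At 144 h the log2 difference of the second TET1 probe set was 0.04, against −0.36 for the brighter one, and that of the second HDAC4 probe set was −0.10, against −0.23. At 72 h the second HDAC4 probe set stood at −0.50 (adjusted p = 0.346, unadjusted p = 0.00573), against −0.03 for the brighter one.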
